A study of Homo sapiens with 8 samples.

Results

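Cells keep their proteins folded with families of molecular chaperones, and their mRNA levels were compared here in prostate cancer cells with and without a BET inhibitor. RNA-seq read counts of 74 chaperone genes were examined out of 57603 gene identifiers. These 74 are the genes with HSPA, HSPB, DNAJA, DNAJB or DNAJC symbols (the HSP70 family, the small heat shock proteins and the J proteins) together with HSP90AA1, HSP90AB1, HSP90B1, HSPD1, HSPE1, HSPH1, HSF1 and HSF2. They were chosen by a rule on symbols, with earlier results of these data known. HSP70 proteins bind and release unfolded chains in a cycle driven by ATP. J proteins carry the J domain that starts this cycle and bring particular substrates to it, HSP110 proteins exchange the nucleotide, and HSP90 finishes the folding of clients. Steroid receptors and kinases are known clients of HSP90. The transcription factor HSF1 switches on the cytosolic chaperones after heat or proteotoxic stress, while the unfolded protein response switches on those of the endoplasmic reticulum (ER).

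The cells were 22Rv1, a castration-resistant prostate cancer line grown in 10% fetal bovine serum, with either of 2 transgenes, GFP as the control and HNF4G, both driven by the murine stem cell virus promoter. HNF4G encodes a nuclear receptor of gut and liver, which 22Rv1 cells also express on their own. The cells were then kept for 24 hours in DMSO or in 25 nM ABBV-075 (mivebresib), a small molecule that blocks the acetyl-lysine pockets of BET proteins. Each of the 4 groups, named by line and treatment (GFP-DMSO and so on), had 2 libraries, numbered 1 and 2. The labels name no separate cultures or derivations of the lines, so the spread behind the p-values is that between these libraries alone and may be technical, and the lines may differ in their derivation as well as in the transgene, which these data cannot tell apart.

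Values are normalized counts (reads of a gene over the size factor of its library), given for number 1 and then number 2. The libraries held from 31508275 to 40262678 reads, of which the 74 genes took 1.57% to 1.88%. Of 10 luminal prostate markers, all were read in every library. CD3E and CDH5, markers of T cells and endothelium, stood at 0 in all 8, and of the stromal markers COL1A1 stood at 91.2 to 177 and LUM at 147 to 1283. HNF4G itself stood at 206 to 1088 in the GFP libraries and at 10109 to 43972 in the HNF4G libraries. The reads of HNF4G-DMSO number 2 and HNF4G-ABBV-075 number 1 came from transcripts with a lower mean GC content (46.6% and 46.7%) than those of the other 6 libraries (47.7% to 48.3%). Calls on chaperone genes that change without these 2 libraries, or with values corrected for transcript GC content and length, are given together after the first counts. In bulk RNA, fewer expressing cells and less RNA per cell cannot be told apart.

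Of the 74 genes, 64 had a mean of at least 10 normalized counts and were tested, within a table of 17876 tested genes. The 10 below that level included genes known mainly from testis or muscle. HSPA7 (annotated as a pseudogene), HSPB2 and HSPB3 were at 0 in every library, where a count of 0 allows up to 3 reads. DNAJC15, DNAJB8 and HSPB7 never passed 1.15 normalized counts. HSPA6, the strictly heat-inducible HSP70 of human cells, stood at 8.71 and 5.05 under DMSO and 5.51 and 8.07 under ABBV-075 in GFP cells, and at 3.88 and 0.86 under DMSO and 0.97 and 7.20 under ABBV-075 in HNF4G cells. DNAJB3 (also annotated as a pseudogene), DNAJB13 and HSPB9 stayed between 0 and 12.6 normalized counts. These 10 genes were not tested.

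The pool of chaperone mRNA was dominated by a few genes, compared here as normalized counts per kilobase of transcript. HSP90B1, the ER form of HSP90 also called GRP94, came first in GFP-DMSO with 39810 per kilobase. It was followed by HSPD1, the mitochondrial chaperonin, with 37260, by the constitutive cytosolic HSP70 HSPA8 with 32429, and by the cytosolic HSP90 genes HSP90AB1 with 27813 and HSP90AA1 with 21322. HSPA5, the ER HSP70 also called BiP, followed with 15628 and HSPB1, a small heat shock protein, with 10886. Of the J proteins, DNAJA1 came highest, with 6607 per kilobase. The stress-inducible HSPA1B had 1584 per kilobase. The first 6 of these genes led in all 4 groups, with changes of place among neighbours, such as HSPD1 before HSP90B1 in HNF4G-DMSO (34867 and 34456).

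**Figure D1:**
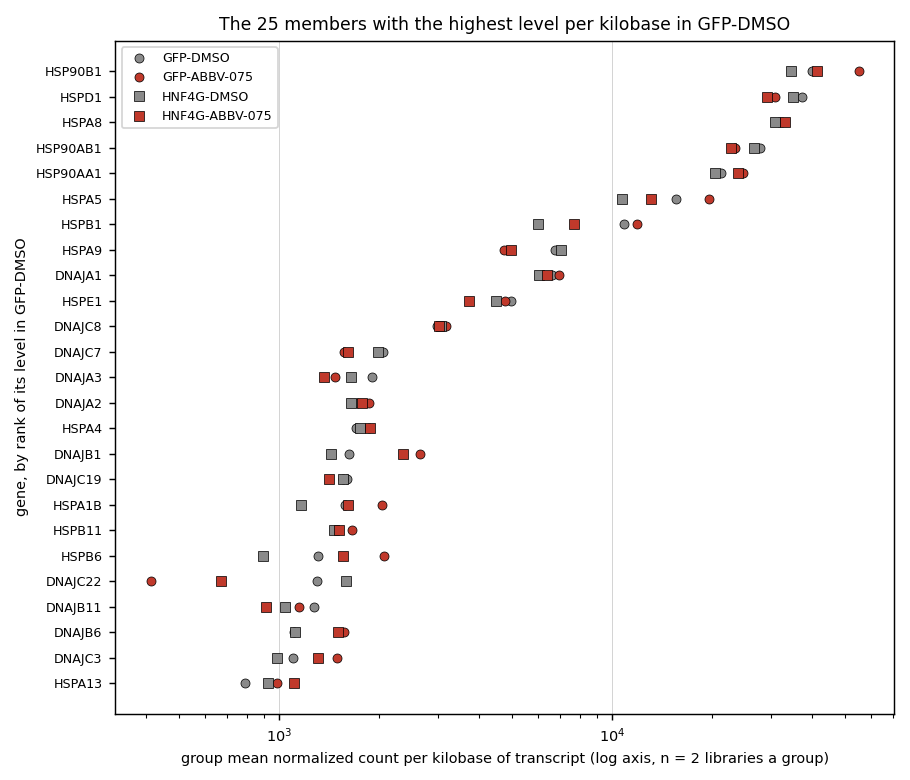
Group mean normalized count per kilobase of transcript (x axis, log scale) for the 25 chaperone genes with the highest level in GFP-DMSO (y axis). Circles are GFP cells, squares are HNF4G cells, grey is DMSO and red is ABBV-075, each a mean of 2 libraries. HSP90B1 leads in GFP-DMSO at 39810 per kilobase, and DNAJC22 shows the widest gap between DMSO and drug.

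The first question was what the BET inhibitor did to these genes in GFP cells. At an adjusted p under 0.05, 16 of the 64 rose, 8 fell and 40 were not called. The shares were 25.0% higher and 12.5% lower, against 14.2% higher and 19.2% lower of all genes tested. The median log2 change was 0.08 over the 64 and -0.01 over all genes tested. In HNF4G cells 14 rose (21.9%), 6 fell (9.4%) and 44 were not called, against 12.9% and 18.3% of all genes tested, with medians of 0.10 and 0.02. J proteins, 39 of the 64 genes tested (60.9%), made up 12 of the 16 that rose and 5 of the 8 that fell in GFP cells, and 12 of 14 and 3 of 6 in HNF4G cells. The 12 genes called higher in both lines were DNAJB1, DNAJB2, DNAJB4, DNAJB5, DNAJB6, DNAJC1, DNAJC6, DNAJC16, DNAJC18, DNAJC28, DNAJC30 and HSPA5, which is 12 of the 16 called in GFP cells and 12 of the 14 called in HNF4G cells. The 5 called lower in both were HSPB8, DNAJC22, DNAJC11, DNAJC2 and HSPA9, which is 62.5% and 83.3%. The comparisons share no library but share the estimate of the spread. The sign was the same in both for 57 of the 64 genes, and no gene called in either line had the opposite sign in the other. Neither the overlap of calls nor the shared sign was counted over all genes tested, so neither is shown to be particular to these genes.

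**Figure D2:**
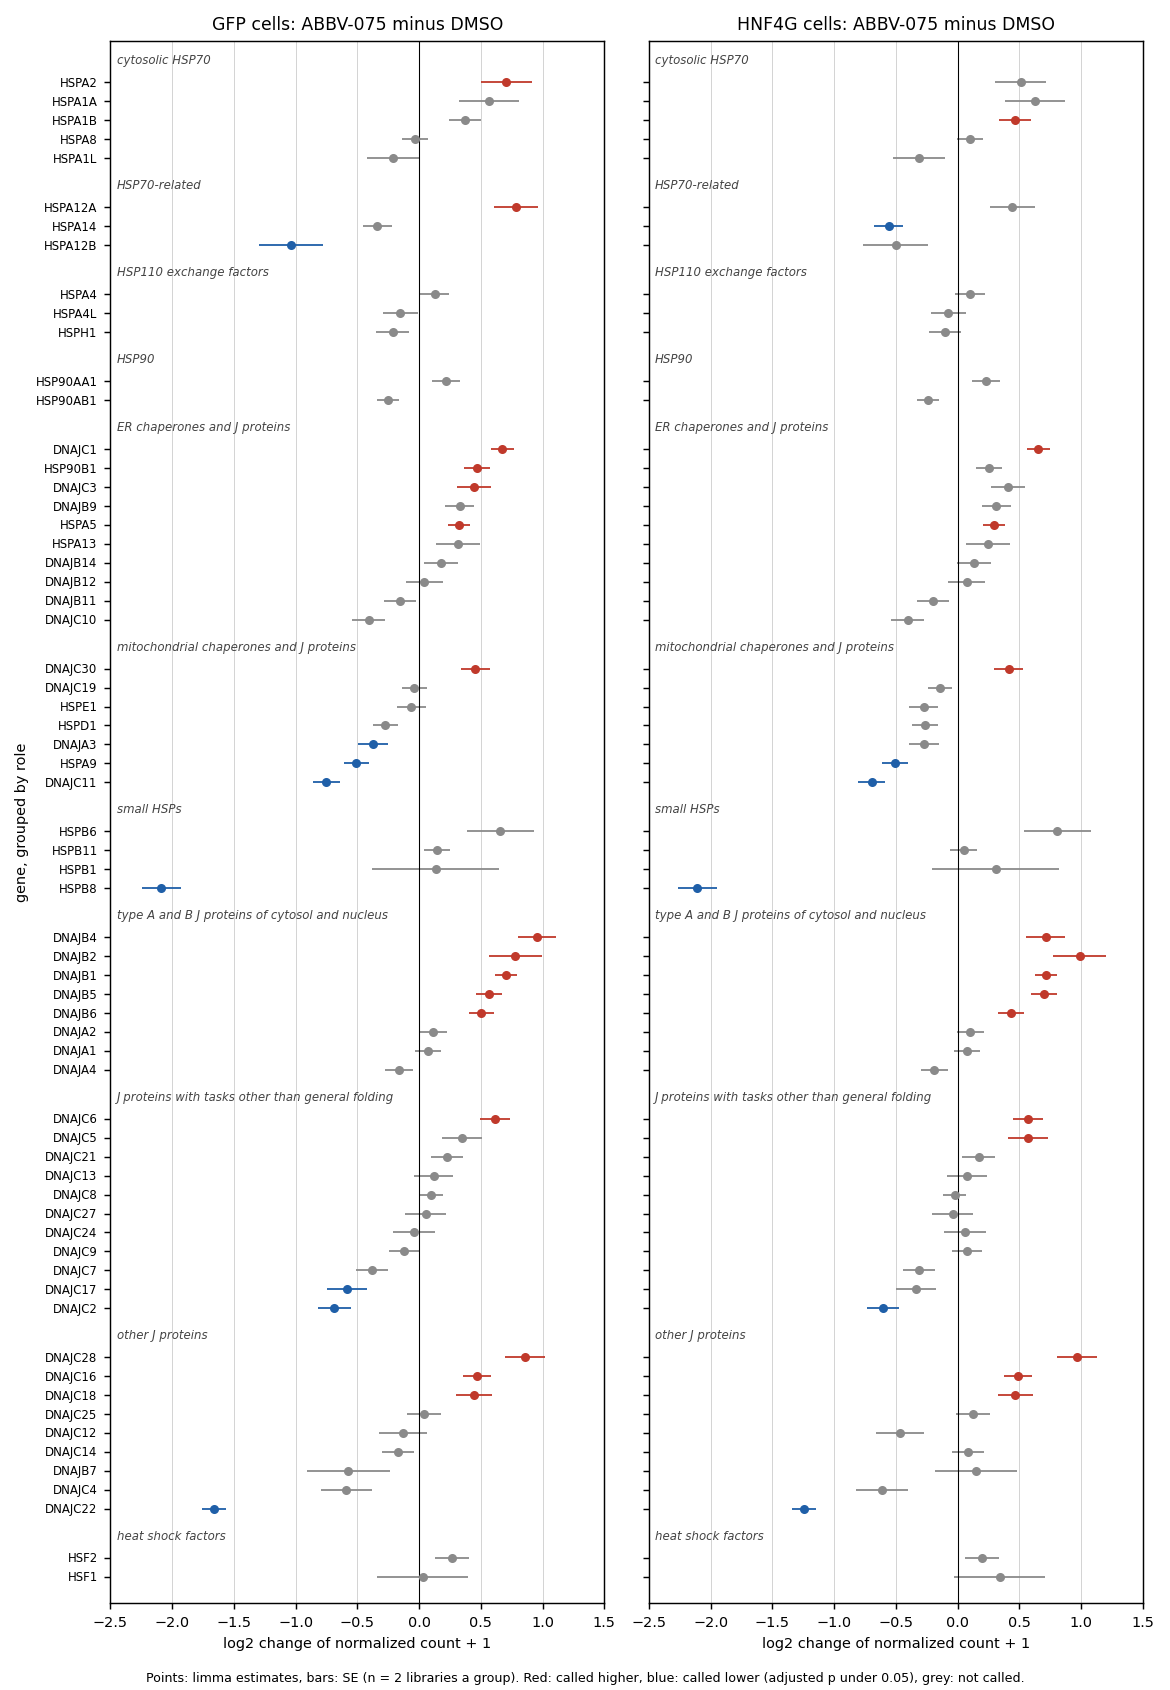
Log2 change of normalized count + 1 with ABBV-075 against DMSO (x axis) for the 64 tested chaperone genes, grouped by role (y axis), in GFP cells (left) and HNF4G cells (right). Points are limma estimates with SE bars (2 libraries a group), red where called higher, blue where called lower and grey where not called. HSPB8 and DNAJC22 lie farthest to the left in both panels, and 5 of 8 type A and B J proteins are red in each.

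These counts moved with the choice of libraries. Without any 1 of the 4 GFP libraries, 5 or 6 genes rose and 3 to 5 fell in GFP cells, and without either HNF4G-ABBV-075 library 21 rose and 14 fell there. In HNF4G cells 13 fell without HNF4G-ABBV-075 number 1, and 9 rose without HNF4G-DMSO number 1 or any 1 GFP library. Without both low-GC libraries, 28 rose and 17 fell in GFP cells and 24 and 16 in HNF4G cells, with only the GFP pairs giving the spread, and with correction for GC content and length 28 and 17 in GFP cells and 29 and 14 in HNF4G cells. The number of all tested genes called higher in GFP cells went from 2534 to 5151 in that setting. With only the 4 libraries of a line fitted, 28 rose and 17 fell in GFP cells, but only 4 and 3 in HNF4G cells. This lost the HNF4G-cell calls for HSPA5, HSPA9, HSPA14, HSPA1B, DNAJB2, DNAJB4, DNAJC2, DNAJC5 and DNAJC6, among others. Of the genes described below, the calls for HSPB8, DNAJC22, DNAJC11, DNAJB1, DNAJC1 and DNAJC28 held in both lines under every alternative setting tried and without each library in turn.

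The added calls were largely the same in both settings. In GFP cells both added DNAJA2, DNAJB9, DNAJC5, DNAJC21, HSF2, HSP90AA1, HSPA1A, HSPA1B, HSPA4, HSPA13 and HSPB6 as higher and DNAJB11, DNAJC4, DNAJC7, DNAJC10, HSP90AB1, HSPA4L, HSPA14, HSPD1 and HSPH1 as lower. In HNF4G cells both added DNAJB9, DNAJC3, HSP90AA1, HSP90B1, HSPA1A, HSPA2, HSPA13 and HSPB6 as higher and DNAJB11, DNAJC4, DNAJC7, DNAJC10, DNAJC12, HSP90AB1, HSPD1 and HSPE1 as lower. The correction alone added DNAJC13 and HSPE1 in GFP cells, and DNAJA1, DNAJA2, DNAJC21, HSF2, HSPA4, HSPA8 and HSPA12A, all higher, in HNF4G cells. Leaving the libraries out alone added DNAJB14 in GFP cells, and HSF1, HSPB1, DNAJA3 and DNAJC17 in HNF4G cells. HSPA12B in GFP cells was the 1 call lost, with the correction. "Not called" below refers to the fit on all 8 libraries without correction.

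Among the J proteins of cytosol and nucleus with a type A or B build, 5 of 8 rose in GFP cells and the same 5 in HNF4G cells, all of type B. That is 62.5% in each line, against 14.2% and 12.9% of all genes tested. DNAJB1, the main stress-inducible partner of HSP70, stood at 3774 and 3514 under DMSO and 5958 and 5901 under ABBV-075 in GFP cells, and at 3265 and 3162 under DMSO and 5163 and 5411 under ABBV-075 in HNF4G cells. Both drug libraries lay above both DMSO libraries in each line, a log2 change of 0.70 ± 0.09 (SE, as below; adjusted p = 0.00087) in GFP cells and of 0.72 ± 0.09 (adjusted p = 0.000874) in HNF4G cells. The gene lies on chromosome 19 at 14514769 to 14560391 (GRCh38), where it overlaps TECR on the other strand.

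DNAJB4, a close relative of DNAJB1 on chromosome 1 (77979175 to 78017964), had 664 and 729 under DMSO and 1308 and 1391 under ABBV-075 in GFP cells, and 698 and 775 under DMSO and 1401 and 1039 under ABBV-075 in HNF4G cells. The groups did not overlap in either line, with log2 changes of 0.95 ± 0.16 (adjusted p = 0.0028) and 0.71 ± 0.16 (adjusted p = 0.0108). Without HNF4G-DMSO number 1 the call in HNF4G cells was lost (adjusted p = 0.0522). DNAJB2, which carries motifs that bind ubiquitin, had 1252 and 1216 under DMSO and 2098 and 2139 under ABBV-075 in GFP cells, and 1141 and 806 under DMSO and 1558 and 2324 under ABBV-075 in HNF4G cells. Its HNF4G libraries spread widely, with the low-GC library the lowest under DMSO and the lower of the pair under the drug. The changes were 0.78 ± 0.21 and 0.99 ± 0.21 (adjusted p = 0.0251 and 0.0103), the former lost without any 1 GFP library (adjusted p up to 0.123) and the latter without HNF4G-DMSO number 2 (0.0502).

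DNAJB5 rose from 561 ± 27.7 to 831 ± 11.0 normalized counts in GFP cells and from 431 ± 9.85 to 700.0 ± 11.4 in HNF4G cells (SD, n = 2 each). The log2 changes were 0.57 ± 0.11 and 0.70 ± 0.11, and the call in GFP cells was lost without GFP-DMSO number 2 or GFP-ABBV-075 number 2 (adjusted p up to 0.0575). DNAJB6, which keeps aggregation-prone proteins soluble, changed by 0.51 ± 0.10 and 0.43 ± 0.10. None of the 3 type A genes of the cytosol was called. DNAJA1, the most abundant J protein per kilobase, stood at 16008 and 14636 under DMSO and 16102 and 16072 under ABBV-075 in GFP cells, and at 13192 and 14821 under DMSO and 15984 and 13611 under ABBV-075 in HNF4G cells, and its libraries overlapped in HNF4G cells. Its log2 changes were 0.07 ± 0.11 and 0.08 ± 0.11, those of DNAJA2 0.12 ± 0.11 and 0.10 ± 0.11, and those of DNAJA4 -0.16 ± 0.11 and -0.19 ± 0.11, none of which was called. With correction for GC content and length DNAJA2 had 0.14 and 0.19, called higher in both lines, and DNAJA1 0.15 in HNF4G cells, also called.

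**Figure D3:**
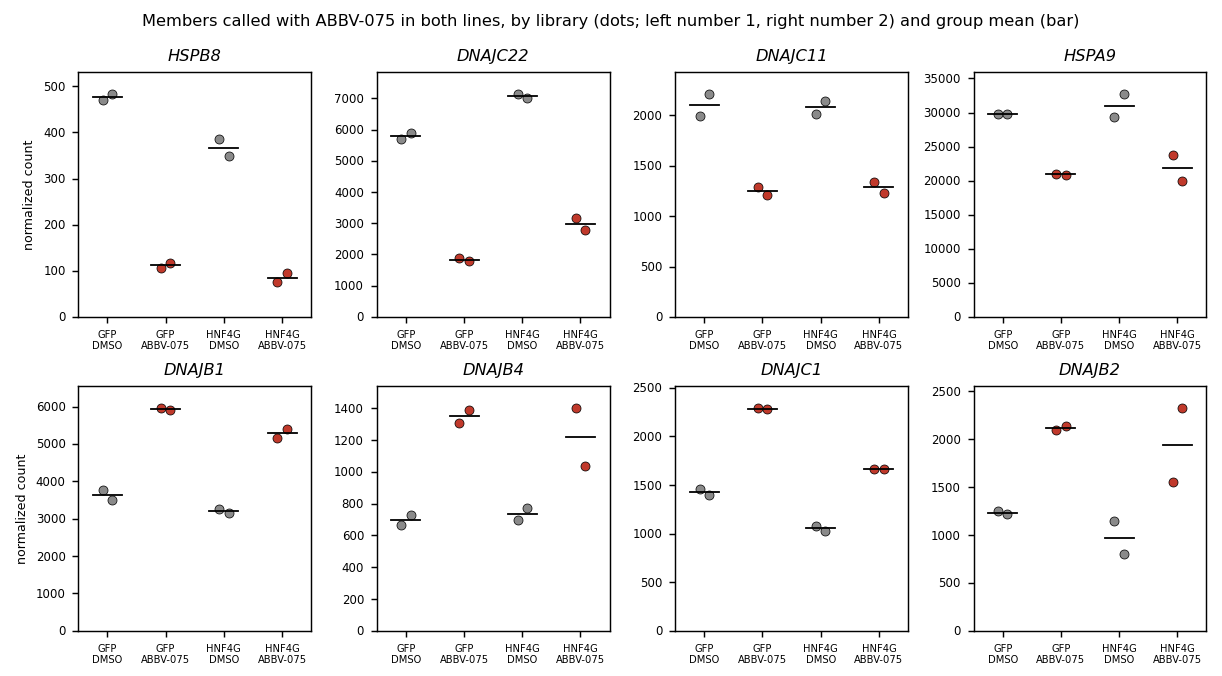
Normalized count (y axis, from 0) in each library (dots, number 1 left and number 2 right) and group mean (bar) for 8 chaperone genes called with ABBV-075 in both lines, grey for DMSO and red for ABBV-075. HSPB8, DNAJC22, DNAJC11 and HSPA9 (top row) are lower and DNAJB1, DNAJB4, DNAJC1 and DNAJB2 (bottom row) higher with the drug, with no overlap between the libraries compared.

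Of the HSP70 genes that these J proteins serve in the cytosol, the most abundant was not called. HSPA8 (chromosome 11, 123057489 to 123063230) stood at 72930.2 and 73906 under DMSO and 71507 and 72184 under ABBV-075 in GFP cells, and at 65217 and 74685 under DMSO and 82095 and 68058 under ABBV-075 in HNF4G cells. Drug and DMSO libraries overlapped in HNF4G cells, where the low-GC library of each group was the higher one, and the log2 changes were -0.03 ± 0.10 (adjusted p = 0.844) and 0.10 ± 0.10 (adjusted p = 0.505). With correction for GC content and length the change of HSPA8 in HNF4G cells was 0.18 and called (adjusted p = 0.0083), and without both low-GC libraries 0.06 and not called. HSPA1A and HSPA1B, the major stress-inducible HSP70 genes, are near-identical neighbours on chromosome 6, and counting can split their reads. Their summed counts were 4768 and 4224 under DMSO and 5681 and 6125 under ABBV-075 in GFP cells, and 3604 and 2968 under DMSO and 4159 and 5024 under ABBV-075 in HNF4G cells. The drug libraries lay above the DMSO libraries of the same line.

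HSPA1B alone was called in HNF4G cells (0.46 ± 0.13, adjusted p = 0.0289) and not in GFP cells (0.37 ± 0.13, adjusted p = 0.0598). The former call was lost without any 1 GFP library and without number 2 of either HNF4G group (adjusted p up to 0.145). HSPA1A had 0.56 ± 0.24 and 0.62 ± 0.24 (adjusted p = 0.113 and 0.0879). HSPA2, an HSP70 known from the testis, stood at 675 and 591 under DMSO and 1021 and 1042 under ABBV-075 in GFP cells, and at 632 and 481 under DMSO and 643 and 961 under ABBV-075 in HNF4G cells. It rose by 0.71 ± 0.21 in GFP cells (adjusted p = 0.033, lost without any 1 GFP library, up to 0.178), and its 0.51 ± 0.21 in HNF4G cells was not called (adjusted p = 0.1).

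Neither HSP90 gene of the cytosol was called, and they differed in sign. HSP90AA1, the inducible form, stood at 67543 and 70112 under DMSO and 80707 and 79251 under ABBV-075 in GFP cells, and at 60828 and 70537 under DMSO and 85697 and 69102 under ABBV-075 in HNF4G cells, with log2 changes of 0.22 ± 0.11 and 0.23 ± 0.11. HSP90AB1, the constitutive form, stood at 71971 and 70151 under DMSO and 60426 and 59195 under ABBV-075 in GFP cells, and at 66858 and 69756 under DMSO and 62884 and 53279 under ABBV-075 in HNF4G cells, with -0.25 ± 0.09 and -0.24 ± 0.09 (adjusted p = 0.0632 and 0.0751). Drug and DMSO libraries of HSP90AB1 did not overlap in either line, and those of HSP90AA1 overlapped in HNF4G cells. Without both low-GC libraries HSP90AA1 was called higher (0.22 and 0.18) and HSP90AB1 lower (-0.25 and -0.33) in both lines. The nucleotide exchange factors HSPH1, HSPA4 and HSPA4L were not called, HSPH1 at -0.21 ± 0.13 and -0.10 ± 0.13.

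The heat shock factors that drive the cytosolic genes were not called either. HSF2 stood at 1144 and 1190.0 under DMSO and 1394 and 1409.5 under ABBV-075 in GFP cells, and at 1099.6 and 1283 under DMSO and 1519 and 1217 under ABBV-075 in HNF4G cells, a log2 change of 0.26 ± 0.14 in GFP cells and 0.19 ± 0.14 in HNF4G cells. HSF1 stood at 1248 and 1232 under DMSO and 1217 and 1321 under ABBV-075 in GFP cells, and at 1092 and 659 under DMSO and 707 and 1636 under ABBV-075 in HNF4G cells. Its GFP libraries lay within a narrow range, while both low-GC libraries were the lowest of the 8. The log2 changes of HSF1 were 0.03 ± 0.37 and 0.34 ± 0.37, and without those libraries 0.03 and 0.58, the latter then called. With correction for GC content and length HSF1 had 0.08 and 0.28, neither called (adjusted p = 0.602 and 0.0782), and HSF2 0.26 and 0.27, both called higher.

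In the ER, 4 of 10 genes rose in GFP cells (40%, against 14.2% of all genes tested) and 2 in HNF4G cells (20%, against 12.9%). None fell, against 19.2% and 18.3% of all genes tested. The median log2 change of the 10 was 0.32 and 0.25. HSPA5 (chromosome 9, 125234853 to 125241382), which binds nascent chains and holds the unfolded protein response sensors in check, stood at 63824 and 58728 under DMSO and 76049 and 77389.7 under ABBV-075 in GFP cells, and at 39708 and 44338 under DMSO and 54009 and 48846 under ABBV-075 in HNF4G cells. Drug libraries lay above DMSO libraries within each line, with log2 changes of 0.33 ± 0.09 (adjusted p = 0.0241) and 0.29 ± 0.09 (adjusted p = 0.0384). They were the smallest rises called in each line. In GFP cells the call was lost without any 1 GFP library (adjusted p up to 0.168), and in HNF4G cells without any 1 GFP library or number 1 of either HNF4G group (up to 0.167). DESeq2 (adjusted p = 0.0832 and 0.145), the replicate block (0.0509 and 0.0748), no filter and limma without the trend also lost both calls.

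HSP90B1 (chromosome 12, 103930107 to 103953931) stood at 111695 and 109807 under DMSO and 156023 and 151097 under ABBV-075 in GFP cells, and at 90881 and 100833 under DMSO and 126920.2 and 102531 under ABBV-075 in HNF4G cells. It rose by 0.47 ± 0.10 in GFP cells (adjusted p = 0.0108, up to 0.0756 without any 1 GFP library, and 0.16 and not called with quantile normalization), and its 0.25 ± 0.10 in HNF4G cells was not called (adjusted p = 0.104), where number 2 of the drug pair stood just above the DMSO pair. DNAJC1, a J protein of the ER membrane on chromosome 10 (21756548 to 22003769), stood at 1462 and 1403 under DMSO and 2292 and 2280.4 under ABBV-075 in GFP cells, and at 1084 and 1031 under DMSO and 1667 and 1662 under ABBV-075 in HNF4G cells. The groups did not overlap, and it rose by 0.67 ± 0.10 (adjusted p = 0.00145) and 0.65 ± 0.10 (adjusted p = 0.00179).

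DNAJC3, an ER co-chaperone of HSPA5, rose by 0.45 ± 0.13 in GFP cells (adjusted p = 0.0366, lost without any 1 GFP library, up to 0.181) and had 0.41 ± 0.13 (adjusted p = 0.0524) in HNF4G cells. DNAJB9, a J protein that the unfolded protein response induces, had 0.33 ± 0.12 and 0.31 ± 0.12 and was not called. DNAJC10, a reductase that breaks disulfide bonds of misfolded chains, had negative changes without a call (-0.41 ± 0.14 and -0.40 ± 0.14, adjusted p = 0.051 and 0.0551). So did DNAJB11, another HSPA5 partner, at -0.15 ± 0.13 and -0.20 ± 0.13.

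**Figure D4:**
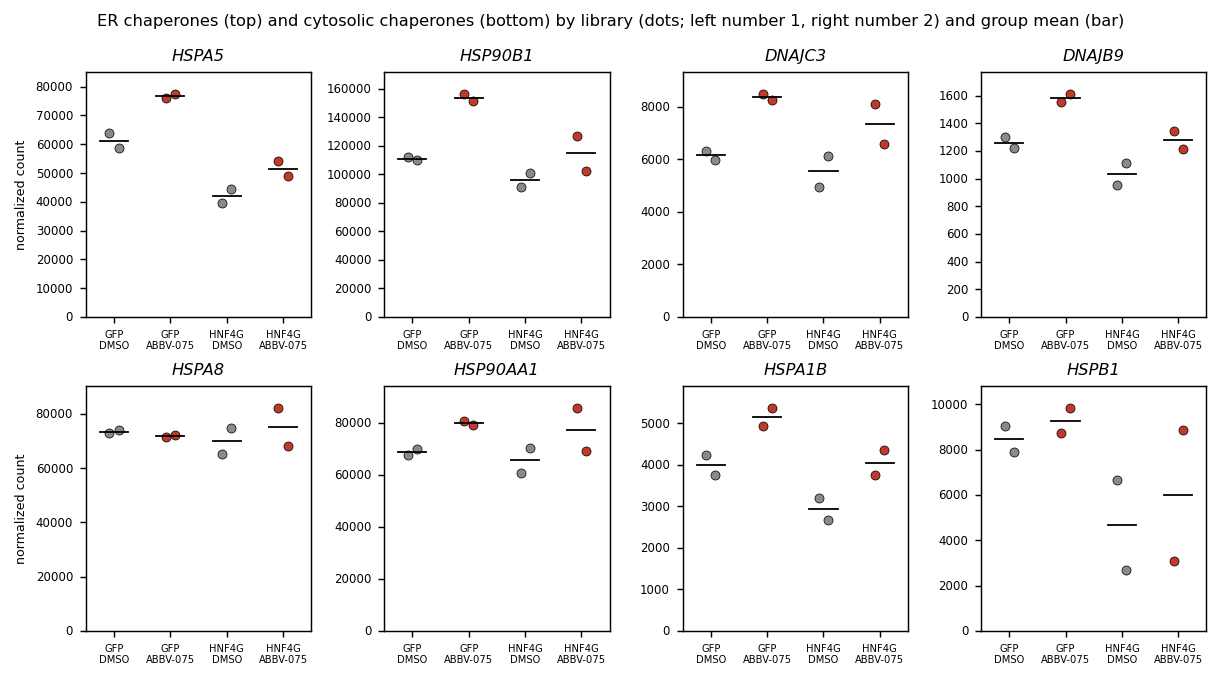
Normalized count (y axis, from 0) in each library (dots, number 1 left and number 2 right) and group mean (bar) for 4 ER genes (top) and 4 cytosolic genes (bottom), grey for DMSO and red for ABBV-075. HSPA5 is higher with the drug in each line and lower in HNF4G than in GFP cells, and HSPB1 has 1 low library in each HNF4G group.

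The unfolded protein response factor ATF6 binds the ER stress element, CCAAT and CCACG with 9 bases between them, together with the CCAAT-binding factor NF-Y. The promoter windows of HSPA5 and HSP90B1 are shown because both genes rose in GFP cells and because they alone among the 64 chaperone genes with a window in the RefSeq table (GRCh38.p14, 250 bases before to 50 after the start, gene strand) held this element. Windows were read on both strands, and capitals mark the matches, at -66 in HSPA5 and at -194 and -89 in HSP90B1, counted from the start.
HSPA5 (chr9:125241294-125241593, minus strand): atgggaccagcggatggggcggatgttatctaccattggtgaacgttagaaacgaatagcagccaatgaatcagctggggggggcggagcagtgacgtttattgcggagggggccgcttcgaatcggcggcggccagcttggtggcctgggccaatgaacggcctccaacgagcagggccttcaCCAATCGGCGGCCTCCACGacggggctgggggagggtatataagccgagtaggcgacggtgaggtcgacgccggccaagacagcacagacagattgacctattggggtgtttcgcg
HSP90B1 (chr12:103930160-103930459, plus strand): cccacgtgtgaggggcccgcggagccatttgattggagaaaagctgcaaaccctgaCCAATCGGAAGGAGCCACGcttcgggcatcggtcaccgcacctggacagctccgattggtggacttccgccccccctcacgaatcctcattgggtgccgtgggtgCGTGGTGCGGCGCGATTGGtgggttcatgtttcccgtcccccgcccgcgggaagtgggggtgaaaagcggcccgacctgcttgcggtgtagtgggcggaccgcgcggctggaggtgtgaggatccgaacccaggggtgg
The element stood in 0.08% of all 27305 windows read, each of a different gene symbol. The CCAAT box alone, which it contains, stood in 26 of the 64 (40.6%) and in 35.7% of all.

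Of 7 mitochondrial genes, 3 fell (42.9%, against 19.2% of all genes tested) and 1 rose in GFP cells. In HNF4G cells 2 fell (28.6%, against 18.3%) and 1 rose, and the median log2 change was -0.27 in both lines. DNAJC11 (chromosome 1, 6634168 to 6701924), a protein of the outer membrane linked to the organizing system of the cristae, stood at 1997 and 2209 under DMSO and 1288 and 1211 under ABBV-075 in GFP cells, and at 2018 and 2139.9 under DMSO and 1341 and 1228 under ABBV-075 in HNF4G cells. It overlaps THAP3 on the other strand. Drug libraries lay well below DMSO libraries, with log2 changes of -0.75 ± 0.11 (adjusted p = 0.00161) and -0.69 ± 0.11 (adjusted p = 0.00245).

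HSPA9 (chromosome 5, 138553756 to 138575675), the mitochondrial HSP70 also called mortalin, which pulls imported chains into the matrix, stood at 29806 and 29752 under DMSO and 21001 and 20843 under ABBV-075 in GFP cells, and at 29289 and 32693 under DMSO and 23798 and 19913 under ABBV-075 in HNF4G cells. Its log2 change was -0.51 ± 0.10 in GFP cells (adjusted p = 0.00693, call lost without any 1 GFP library) and -0.51 ± 0.10 in HNF4G cells (adjusted p = 0.00757, call lost with only the libraries compared). Its partner J protein DNAJA3 fell by 0.37 on the log2 scale in GFP cells (adjusted p = 0.0455, up to 0.199 without any 1 GFP library) and had -0.27 ± 0.12 in HNF4G cells. The chaperonin HSPD1 stood at 82973 and 84325 under DMSO and 68772 and 69773 under ABBV-075 in GFP cells, and at 73331 and 83220.0 under DMSO and 71526 and 59241 under ABBV-075 in HNF4G cells. It had -0.27 ± 0.10 and -0.26 ± 0.10 and was not called (adjusted p = 0.0762 and 0.0876).

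The co-chaperonin HSPE1, which caps the HSPD1 ring, had -0.06 ± 0.12 and -0.28 ± 0.12. HSPE1 overlaps the readthrough gene HSPE1-MOB4, listed at 0 in every library. Against the others, DNAJC30, known from the care of respiratory complex I, rose by 0.46 ± 0.12 and 0.41 ± 0.12 (adjusted p = 0.0192 and 0.0296). Both calls were lost without any 1 GFP library (up to 0.136 and 0.167), and that in HNF4G cells also by DESeq2 (0.0569) and with the replicate block (0.0705).

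The largest change of any chaperone gene was in the small heat shock proteins. HSPB8 (chromosome 12, 119171555 to 119224855), which works with BAG3 to send misfolded proteins to autophagy, stood at 471 and 483 under DMSO and 106 and 118 under ABBV-075 in GFP cells, and at 385 and 348 under DMSO and 74.7 and 94.7 under ABBV-075 in HNF4G cells. The group means were 477 ± 8.18 and 112 ± 8.40 in GFP cells, and 367 ± 25.9 and 84.7 ± 14.1 in HNF4G cells (SD, n = 2 each). Each drug library was below every DMSO library, with log2 changes of -2.09 ± 0.16 (adjusted p = 9.92e-05) and -2.11 ± 0.16 (adjusted p = 0.00012). BAG3 itself was not called (0.14 ± 0.14 and 0.30 ± 0.14).

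The other small heat shock genes were not called. HSPB1, also known as HSP27, stood at 9043 and 7874 under DMSO and 8719 and 9824 under ABBV-075 in GFP cells, and at 6655 and 2683 under DMSO and 3076 and 8879 under ABBV-075 in HNF4G cells. The values of 2683 and 3076 came from the low-GC libraries, and the log2 changes of 0.13 ± 0.52 and 0.31 ± 0.52 carried the largest error of the 64 genes. Without those libraries the change in HNF4G cells was 0.42 and called, and with correction for GC content and length it was 0.04 and not called (adjusted p = 0.9). HSPB6 stood at 1986 and 1839.5 under DMSO and 2982 and 3051 under ABBV-075 in GFP cells, and at 1645 and 965 under DMSO and 1748 and 2788 under ABBV-075 in HNF4G cells, with 0.66 ± 0.27 and 0.81 ± 0.27 (adjusted p = 0.101 and 0.0561), and was called higher in both lines without those libraries (0.66 and 0.76) and by DESeq2. HSPB11, counted among these genes by its symbol alone, had 0.15 ± 0.11 and 0.05 ± 0.11.

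Heat shock factors bind heat shock elements, inverted repeats of GAA. The form with 2 units, GAA and TTC with 2 bases between them and 1 base on each side, stood in 11 of the 64 windows (17.2%) against 6.81% of all 27305, and the form with 3 alternating units, each 2 bases apart, which can overlap the shorter, in 4 (6.25%) against 0.49%. These 4 were DNAJA1, DNAJB6, HSPA6 and HSPA8. Of the 15 windows of genes that rose in GFP cells 1, that of DNAJB6, held the shorter form, of the 6 of genes that fell 1, and of the 36 of genes not called 8. Only 1 window per gene was read, the first listed for its symbol, so other starts of a gene were not covered. The window of DNAJB1 (chr19:14529222-14529521) lies inside the span of that gene and at neither end of it. These counts depend on that choice of start. The windows of HSPB8, which fell, and of HSPA8 and HSPA1B, which were not called in GFP cells, are shown with the matches in capitals, read on both strands.
HSPB8 (chr12:119178681-119178980, plus strand): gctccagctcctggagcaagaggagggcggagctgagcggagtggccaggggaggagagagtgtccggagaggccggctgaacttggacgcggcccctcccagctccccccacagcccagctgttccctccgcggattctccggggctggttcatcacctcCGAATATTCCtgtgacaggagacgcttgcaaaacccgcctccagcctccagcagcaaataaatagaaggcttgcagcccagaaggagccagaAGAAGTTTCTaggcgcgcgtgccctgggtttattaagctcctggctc
HSPA8 (chr11:123062087-123062386, minus strand): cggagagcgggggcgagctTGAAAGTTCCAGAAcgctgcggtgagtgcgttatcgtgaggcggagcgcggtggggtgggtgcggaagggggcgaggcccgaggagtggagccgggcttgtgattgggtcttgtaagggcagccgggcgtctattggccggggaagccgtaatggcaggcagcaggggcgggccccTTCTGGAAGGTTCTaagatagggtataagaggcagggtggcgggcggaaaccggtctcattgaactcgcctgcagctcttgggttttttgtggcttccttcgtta
HSPA1B (chr6:31827488-31827787, plus strand): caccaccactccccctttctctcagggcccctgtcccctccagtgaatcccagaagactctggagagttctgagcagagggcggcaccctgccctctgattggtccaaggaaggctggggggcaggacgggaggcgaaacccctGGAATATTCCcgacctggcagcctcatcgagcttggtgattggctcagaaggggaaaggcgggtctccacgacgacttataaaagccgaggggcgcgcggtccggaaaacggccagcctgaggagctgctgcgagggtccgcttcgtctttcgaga
A match is a stretch of letters and does not show that a factor bound there.

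J proteins with tasks outside general folding split. DNAJC2, which sits on the ribosome with the HSP70 relative HSPA14, stood at 1742 and 1868 under DMSO and 1114 and 1127 under ABBV-075 in GFP cells, and at 1686 and 1969 under DMSO and 1318 and 1086 under ABBV-075 in HNF4G cells. It fell in both lines, with -0.69 ± 0.13 (adjusted p = 0.00575) and -0.61 ± 0.13 (adjusted p = 0.0106), calls lost without GFP-DMSO number 2 (0.0564) and HNF4G-DMSO number 2 (0.0618). HSPA14 stood at 998 and 1036 under DMSO and 783 and 827 under ABBV-075 in GFP cells, and at 1065 and 1203 under DMSO and 813 and 725 under ABBV-075 in HNF4G cells, with -0.34 ± 0.12 (adjusted p = 0.0598) and, called lower, -0.56 ± 0.12 (adjusted p = 0.00931, 0.058 without HNF4G-DMSO number 2). Drug libraries were the lowest for both genes in each line.

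DNAJC6, or auxilin, strips clathrin from vesicles. It stood at 807 and 922 under DMSO and 1329 and 1316 under ABBV-075 in GFP cells, and at 782 and 845 under DMSO and 1302 and 1119 under ABBV-075 in HNF4G cells, and rose by 0.62 ± 0.12 and 0.57 ± 0.12. The call in GFP cells was lost without GFP-DMSO number 1 or either GFP-ABBV-075 library (adjusted p up to 0.0709) and that in HNF4G cells without HNF4G-DMSO number 1 (0.0553). DNAJC5, the cysteine string protein of secretory vesicles, rose in HNF4G cells (0.57 ± 0.16, adjusted p = 0.0307) and was not called in GFP cells (0.35 ± 0.16, adjusted p = 0.136). The former call was lost in 6 of the 8 fits that left out 1 library, with HNF4G-DMSO number 1 and HNF4G-ABBV-075 number 1 the exceptions (adjusted p up to 0.148), and the change was 0.35 without HNF4G-ABBV-075 number 2. DNAJC17, a nuclear J protein with an RNA-binding motif, fell in GFP cells (-0.58 ± 0.16, adjusted p = 0.0273, up to 0.167 without any 1 GFP library) and had -0.34 ± 0.16 in HNF4G cells. The other 7 of these 11 genes lay between -0.38 and 0.23 in both lines and were not called.

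Among the remaining J proteins DNAJC22 changed most. Its fly counterpart, Wurst, takes part in endocytosis. On chromosome 12 (49346888 to 49357546), it stood at 5699 and 5886 under DMSO and 1873 and 1791 under ABBV-075 in GFP cells, and at 7134 and 6998 under DMSO and 3162 and 2798 under ABBV-075 in HNF4G cells. Its group means were 5793 ± 132 and 1832 ± 57.7 in GFP cells, and 7066 ± 95.9 and 2980.2 ± 257 in HNF4G cells (SD, n = 2 each). It fell by 1.66 ± 0.10 on the log2 scale in GFP cells (adjusted p = 3.95e-05) and by 1.25 ± 0.10 in HNF4G cells (adjusted p = 0.000134).

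DNAJC28 stood at 105 and 84.9 under DMSO and 175 and 168 under ABBV-075 in GFP cells, and at 85.3 and 95.1 under DMSO and 181 and 173 under ABBV-075 in HNF4G cells, few reads but with no overlap, and rose by 0.86 ± 0.16 (adjusted p = 0.00504) and 0.96 ± 0.16 (adjusted p = 0.00332). DNAJC16 (0.47 ± 0.11 and 0.49 ± 0.11) and DNAJC18 (0.45 ± 0.14 and 0.47 ± 0.14) rose in both lines too. The calls for DNAJC18 (adjusted p = 0.0441 and 0.0396) were lost by DESeq2 (0.105 and 0.0956), with the replicate block (0.0879 and 0.0811) and without any 1 GFP library, and that for DNAJC16 in GFP cells without any 1 GFP library (adjusted p up to 0.113). DNAJC4, DNAJC12, DNAJC14, DNAJC25 and DNAJB7 were not called. Of the distant HSP70 relatives, HSPA12A stood at 53.2 and 46.5 under DMSO and 92.5 and 80.7 under ABBV-075 in GFP cells, and at 63.0 and 71.7 under DMSO and 96.1 and 87.5 under ABBV-075 in HNF4G cells. It rose in GFP cells (0.79 ± 0.18, adjusted p = 0.0126, 0.0963 at most without GFP-DMSO number 2 or GFP-ABBV-075 number 1) and had 0.44 ± 0.18 in HNF4G cells. HSPA12B fell in GFP cells by 1.04 ± 0.26 on the log2 scale, from 33.9 and 34.4 to 13.2 and 19.6 normalized counts. This call (adjusted p = 0.0185) rests on few reads, and DESeq2 (0.15) and the correction for GC content and length (0.0598) did not make it.

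The study set HNF4G cells beside GFP cells to ask whether HNF4G expression that the drug does not repress changes the response. Under DMSO 1 chaperone gene was lower in HNF4G cells, against 0.117% of all genes tested, and 0 were higher, against 0.783%. At an unadjusted p under 0.05 there were 10 of the 64, against 2170 of all 17876 genes tested. Under ABBV-075 1 was lower, against 0.336%, and 1 higher, against 1.64%. There 11 of the 64 were at an unadjusted p under 0.05, against 2693 of all 17876. The gene lower in both was HSPA5, at -0.55 ± 0.09 (adjusted p = 0.036) under DMSO and -0.58 ± 0.09 (adjusted p = 0.0187) under the drug. All HNF4G libraries of HSPA5 lay below all GFP libraries, and HNF4G cells with the drug, at 54009 and 48846, stayed below untreated GFP cells, at 63824 and 58728.

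The DMSO call for HSPA5 was lost without any 1 of the 4 GFP libraries or either HNF4G-DMSO library (adjusted p up to 0.397) and the drug call without any 1 GFP library (up to 0.190). The log2 difference stayed between -0.70 and -0.44 over all alternatives of either comparison. Of the 10 ER genes, HSPA5 included, 8 had a negative difference under each treatment, with medians of -0.22 and -0.25. Over all 17876 genes tested, 8885 and 8872 had a negative difference. DNAJC1 had -0.44 ± 0.10 and -0.46 ± 0.10 (adjusted p = 0.101 and 0.0619), and HSP90B1 -0.21 ± 0.10 and -0.43 ± 0.10 (adjusted p = 0.465 and 0.106). With values corrected for transcript GC content and length, 14 genes were lower under DMSO and 9 under the drug. How many of all genes tested were called in that setting is not given here, so these counts are not shown to be particular to chaperones. HSPA5, HSP90B1, DNAJC1, DNAJC3, DNAJC10, DNAJB9 and DNAJB11 of the ER and DNAJC6 were in both counts.

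DNAJC22 was the gene that stood higher in HNF4G cells under the drug (0.70 ± 0.10, adjusted p = 0.0118, up to 0.165 without any 1 GFP library). Under DMSO its difference of 0.29 ± 0.10 was not called (adjusted p = 0.307). All HNF4G libraries of DNAJC22 lay above the GFP libraries of the same treatment. The difference between its drug responses was 0.41 ± 0.14 (adjusted p = 1).

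This interaction, the drug change in HNF4G cells minus that in GFP cells, was called for 0 of the 64 chaperone genes, against 0.0112% higher and 0% lower of all genes tested. DNAJC22 was the 1 gene at an unadjusted p under 0.05, and edgeR and DESeq2 called 0. Calls made in one line and not in the other are therefore not shown to differ. HSP90B1 had -0.22 ± 0.15 (adjusted p = 1). Without both low-GC libraries HSP90B1 (-0.30) and HSF1 (0.55) were called, with 1 library left in each HNF4G group.

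The spread between libraries of a group followed transcript GC content in the HNF4G groups. Over the 64 genes, the log2 difference of HNF4G-DMSO number 2 from number 1 correlated with GC content at r = -0.82, and that of HNF4G-ABBV-075 number 1 from number 2 at r = -0.81, as a description across genes of the same libraries. In the GFP groups r was -0.25 and 0.34. Of 11 genes with at least 55% GC, 10 and 9 were lower in the low-GC library, with medians of -0.48 and -0.45. The widest gaps were those of HSPB1, -1.31 and -1.53. Part of the errors given above for HSPB1, HSF1, HSPB6 and DNAJB2 came from these pairs, and the source of the low GC content was not tested.

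**Figure D5:**
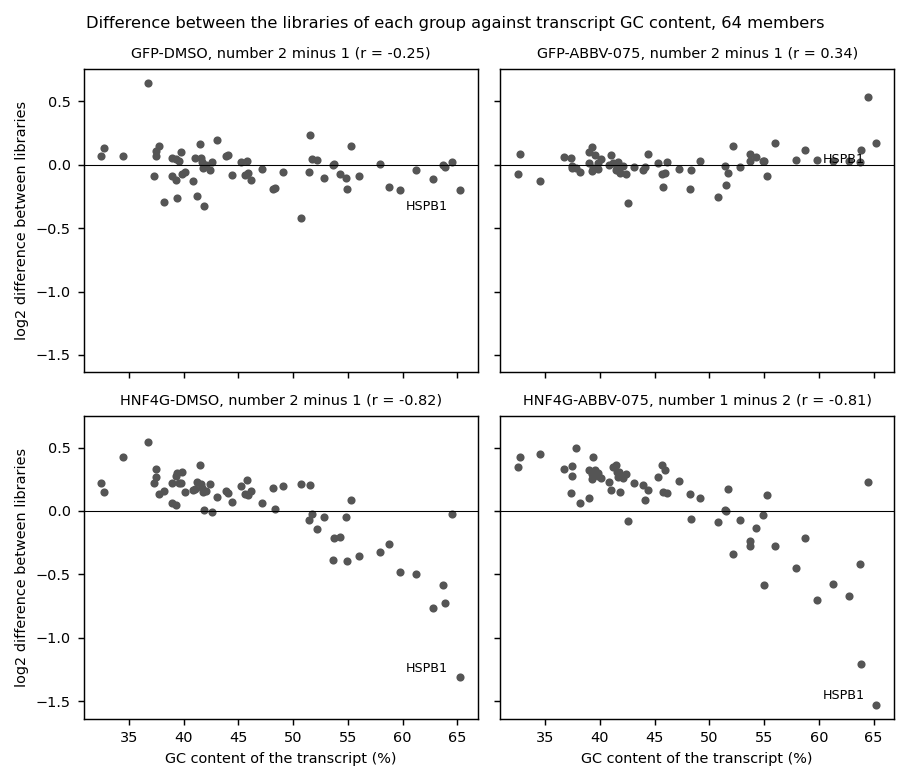
Log2 difference between the 2 libraries of each group (y axis) against the GC content of the transcript in percent (x axis) for the 64 tested chaperone genes, each a dot. In the GFP groups (top) r is -0.25 and 0.34, and in the HNF4G groups (bottom) -0.82 and -0.81, with HSPB1 the lowest point at -1.31 and -1.53.

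Genes of the same folding pathways outside these 74 were counted for context. Of 32 co-chaperones of HSP70 and HSP90, 3 rose (9.38%) and 9 fell (28.1%) in GFP cells, against 14.2% and 19.2% of all genes tested, and 4 (12.5%) and 8 (25.0%) did in HNF4G cells, against 12.9% and 18.3%. BAG4 and CDC37L1 rose (0.49 ± 0.11 and 0.36 ± 0.12 in GFP cells) and BAG2, which slows the ubiquitin ligase CHIP, fell by 1.21 and 1.11 on the log2 scale. FKBP5, an immunophilin of HSP90 complexes, rose (0.34 ± 0.11 and 0.40 ± 0.11) and its relative FKBP4 fell (-0.61 ± 0.08 and -0.63 ± 0.08). HSPBAP1 fell too, by 0.64 and 0.74, and SGTB rose in HNF4G cells (0.64 ± 0.16).

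Of 14 subunits of the TRiC chaperonin, which folds actin and tubulin, and of prefoldin, 6 fell (42.9%) and 0 rose in each line. Of all genes tested, 19.2% fell and 14.2% rose in GFP cells, and 18.3% and 12.9% in HNF4G cells. CCT5 had -0.63 ± 0.10 and -0.60 ± 0.10, CCT3 -0.59 ± 0.07 and -0.54 ± 0.07, and PFDN6 -0.44 ± 0.10 and -0.48 ± 0.10. Of 18 other genes of ER folding and its stress response, 5 rose (27.8%) and 1 fell in GFP cells and 3 (16.7%) and 1 did in HNF4G cells. ERN1, the sensor IRE1, had 0.75 ± 0.11 and 0.88 ± 0.11, DDIT3, the factor CHOP, 0.76 ± 0.10 and 0.59 ± 0.10, and the disulfide isomerase PDIA4 0.71 ± 0.08 and 0.54 ± 0.08, while PDIA6 fell (-0.38 ± 0.10 and -0.34 ± 0.10). In HNF4G against GFP cells under the drug MANF (-0.66 ± 0.11), PDIA4 (-0.64 ± 0.08) and the lectin chaperone CALR (-0.42 ± 0.07) were lower along with HSPA5. Of 10 genes of mitochondrial proteases and import, 3 fell in GFP cells (30.0%) and 2 in HNF4G cells (20.0%), CLPP, a matrix protease, by 1.25 and 1.11, TOMM70 by 0.40 and 0.41 and, in GFP cells, TIMM44 by 0.60, and 0 rose. The calls with the drug for BAG2, FKBP4, CCT3, CCT5, ERN1 and PDIA4 held in both lines under every alternative setting, and those for the other genes named from these lists were lost in 1 to 11 of 24 in at least 1 line. CLPP in HNF4G cells had -0.62 without HNF4G-ABBV-075 number 1 and -1.60 without number 2. None of 4 J-domain and small heat shock genes with other symbols was called in any comparison.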

How the data were processed

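Poly-A RNA of 22Rv1 cells was sequenced from paired ends. Alignment by the authors was to hg38 with STAR (2.6 in the submitters' processing notes, another version in the study's methods). How reads were counted per gene, on which annotation and with which strand setting, and how the size factors were set is not given in the sources used here, so reads of genes that overlap on opposite strands may not have been told apart. The deposited signal was a normalized count, the reads of a gene over the size factor of its library, not scaled by length, and no spike-in was analysed here. Every deposited value above 0 lay within 0.01 of a whole multiple of 1 step per library (100% of values), so whole reads were recovered, with totals of 31508275 to 40262678 reads per library. In GFP-DMSO number 2 the step was 1.01, too close to 1 for a general test of such steps. From 57605 entries the 2 that repeated an identifier were dropped.

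Testing covered genes with a mean of at least 10. A model of 4 group means over all 8 libraries, with an intensity trend, was fitted to log2(normalized count + 1) with limma 3.58.1 in R 4.3.3, for 5 two-sided contrasts, with Benjamini-Hochberg adjustment over all 17876 genes of a contrast and calls at an adjusted p under 0.05. Fold changes on this scale understate those of genes with few reads. The fitting was tested on simulated counts with known changes, with the same dispersion for all genes and libraries and no effect of GC content. That test therefore did not cover the spread with GC content seen in the HNF4G groups. Members and lists were chosen with earlier results of these data known. Genes given in full were a fixed set of 17 members, then up to 8 called rises and 8 called falls per contrast (mean of at least 50, libraries of the compared groups apart), and up to 3 of each from other lists. The rest, such as DNAJB6, DNAJC3, DNAJC16, DNAJC18, DNAJC30, HSPA12B, HSPB6 and BAG3, were named after their values were seen. Alternatives were edgeR 4.0.16 and DESeq2 1.42.0 on the recovered reads, other pseudocounts, filters and scalings, limma without the trend, only the libraries compared, a replicate block, a correction for transcript GC content and length (GENCODE 44, GRCh38, with values for all 64 tested members), and leaving out libraries. Promoter windows came from a RefSeq table (GRCh38.p14) that matched 64 of the 74 members. Where a symbol had several starts, only the first listed was used. Proteins were not analysed here.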

Additional observations from a re-analysis of the deposited data

How the results depend on the processing

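In 24 alternative settings no called change turned its direction among the members named by the fixed set or by the rule on size. Of the 37 calls on these members, 14 held in every setting. Calls on members named after their values were seen, such as DNAJB6, DNAJC3, DNAJC16, DNAJC18, DNAJC30 and HSPA12B, are not among the 37. The counts of members called with ABBV-075 (16 and 14 higher, 8 and 6 lower, in GFP and HNF4G cells in that order) became 28 and 29 higher and 17 and 14 lower with correction for GC content and length, 27 and 28 higher and 17 and 14 lower with that correction and the replicate block, 28 and 24 higher and 17 and 16 lower without both low-GC libraries, and 28 and 4 higher and 17 and 3 lower with only the libraries compared. The count of members lower in HNF4G than in GFP cells (1 under DMSO, 1 under ABBV-075) became 14 and 9 with the GC correction, 7 and 9 with the correction and the replicate block, 14 and 15 without both low-GC libraries, 0 and 0 with no filter or without the trend, 2 under ABBV-075 with a mean of at least 100, and 0 under ABBV-075 with only the libraries compared. The count of members higher in HNF4G cells (0 and 1) became 1 under DMSO with the GC correction, 1 and 4 without both low-GC libraries, and 0 under ABBV-075 with only the libraries compared. The interaction (0 and 0) became 1 higher and 1 lower without both low-GC libraries, a setting that rests on 1 library in each HNF4G group, each assumed to vary like the GFP groups. The same setting turned uncalled differences between the lines under ABBV-075, of HSF1 from -0.24 to 0.37, DNAJC5 from -0.05 to 0.18 and FKBP5 from 0.01 to -0.14. The cause of these moves was not tested, and the shares of all genes called in these settings are not given beside them.

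Leaving out each library in turn gave 5 to 21 members higher and 3 to 14 lower with ABBV-075 in GFP cells, 9 to 16 and 5 to 13 in HNF4G cells, 0 to 1 lower under DMSO, and 0 to 1 higher and 0 to 2 lower under ABBV-075 in HNF4G against GFP cells. The labels do not say whether libraries with the same number are paired. Deviations of same-numbered libraries correlated at -0.127 to 0.128 between groups, and at -0.595 between the HNF4G groups. With the replicate block 12 and 9 members were higher and 6 and 6 lower with ABBV-075, and 0 were lower in HNF4G cells under either treatment. With the numbers crossed in the HNF4G-ABBV-075 group, an alternative chosen after seeing the data, 19 and 18 were higher and 13 and 9 lower. Other pseudocounts, scalings, edgeR and DESeq2 kept each of these counts within 1.5 times the reported one.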
